A study of Mus musculus with 12 samples.

Results

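The genes described here encode the nuclear subunits of the mitochondrial respiratory chain and of ATP synthase, measured by RNA-seq in bone marrow-derived macrophages (BMDMs) of mice. They were chosen by name, as the protein-coding nuclear genes whose symbols begin with Nduf and a, b, c, s or v followed by a digit, with Uqcr, with Cox4 to Cox8 or with Atp5, together with Cyc1, Sdhc and Sdhd, leaving out pseudogenes. This rule matched 83 genes, and 75 of them exceeded 1.5 CPM (counts scaled to the same library total) in at least 2 of the 12 libraries and were tested, among 11228 genes tested and 48795 listed. They comprised 36 of 37 matched genes of complex I, both genes of complex II, all 9 of complex III, 13 of 18 of complex IV and 15 of 17 of complex V. The prefixes are broad, since Ndufa4, placed here under complex I, is now assigned to cytochrome c oxidase, Cox7a2l is a factor of supercomplex assembly, and Atp5s is a factor B-like protein outside the core enzyme.

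The respiratory chain passes electrons from NADH, taken up by complex I, and from succinate, taken up by complex II, through ubiquinone, complex III and cytochrome c to complex IV, which reduces oxygen. The proton gradient built by complexes I, III and IV drives ATP synthesis by complex V. Macrophages exposed to microbial products are known to turn from oxidative phosphorylation towards glycolysis, and in them the mitochondrial enzyme Acod1 makes itaconate, an inhibitor of succinate dehydrogenase, which is complex II.

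The study asked how urban particulate matter (PM) changes macrophages and what part endogenous and added itaconate have in this. BMDMs of WT mice, labelled C57BL/6 and named as C57BL/6NJ in the study's methods, and of Acod1-/- mice, labelled C57BL/6NJ-Acod1em1(IMPC)J/J, were grown from marrow in M-CSF, and each genotype gave 3 groups of 2 libraries. The vehicle groups received PBS for 24 h, the PM groups received the urban dust standard SRM 1649a at 20 µg/cm2 for 24 h, and the OI and PM groups received 0.25 mM 4-octyl itaconate (OI, a cell-permeable itaconate ester) for 2 h before the same PM exposure. No group received OI alone, and the deletion was carried by every cell of an Acod1-/- mouse, not by macrophages alone. The labels do not say whether the 2 libraries of a group came from separate mice or cultures, so every p-value measures only the spread between these libraries.

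The libraries held 33616577 to 36817898 counts each, and the 75 genes together took 0.643 to 0.886% of them. All 8 macrophage markers (Adgre1, Csf1r, Cd68, Itgam, Lyz2, Mertk, Fcgr1 and Cd14) were measured and summed to 23300 to 27340 CPM in the PM libraries and 13640 to 15470 in the others. The marker sums in this paragraph are CPM of the library total, without TMM scaling. Normalised CPM are CPM after TMM scaling by edgeR, and are the unit of every level after this paragraph. Of 8 neutrophil markers 3 passed the minimum, and their list summed to 6.90 to 7.85 CPM in the vehicle libraries, 13.2 to 20.2 in the PM libraries and 27.9 to 53.7 in the OI and PM libraries. The lists for dendritic cells, B cells, T cells, mast cells, fibroblasts and erythroid cells each summed to 4.00 CPM or less, the erythroid genes being at 0 throughout. The macrophage and neutrophil sums thus moved with the treatments, and their part in the results below was not tested. Acod1 itself gave 69 and 98 counts in the WT vehicle libraries, 6346 and 5908 in WT PM, and 1087 and 1688 in WT OI and PM. The libraries labelled Acod1-/- gave 46 and 44, 3660 and 3271, and 812 and 871 counts in the same order, and counts summed over a gene cannot show whether a deleted exon is missing from its transcripts.

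Promoter sequences of some of these genes hold letters that match the motif of NRF1 (nuclear respiratory factor 1), a transcription factor known for driving nuclear genes of the mitochondrion. In the RefSeq promoters used (GRCm38.p6) 61 of the 75 genes were matched, as 66 windows of 250 bases upstream of an annotated start. A gene that was not matched here may still have a RefSeq promoter. The motif GCGCA followed by any base and GCGC, read on both strands, was found in 12 of these windows (18.2%), belonging to 11 genes, against 3.74% of all 32851 promoter windows of that length. The motif CCGGAAGT of ETS factors, also read on both strands, was in 4.55% against 2.88%, AAGGTCA of the oestrogen-related receptors in 6.06% against 4.08%, and AAGATGGCG of YY1 in 1.52% against 0.606%. Overlaps between motifs were not removed. At least 1 of these motifs lay in 25.8% of the windows and in 10.8% of all windows. The set of all windows was not limited to the genes tested here, and base content was not taken into account in these shares. A match describes the letters and is no evidence of binding.

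The windows below belong to members on which the results turn: Cox6a1 (chr5:115348959-115349208, minus strand), the common isoform beside the muscle isoform Cox6a2; Sdhd (chr9:50603850-50604099, minus strand) of complex II; Cox5a (chr9:57520982-57521231, plus strand); and the isoform pair Cox7a1 (chr7:30183921-30184170, plus strand) and Cox7a2 (chr9:79759854-79760103, minus strand). Each is printed 5′ to 3′ on the strand of its gene, with matches to the NRF1 motif in capitals.
Cox6a1: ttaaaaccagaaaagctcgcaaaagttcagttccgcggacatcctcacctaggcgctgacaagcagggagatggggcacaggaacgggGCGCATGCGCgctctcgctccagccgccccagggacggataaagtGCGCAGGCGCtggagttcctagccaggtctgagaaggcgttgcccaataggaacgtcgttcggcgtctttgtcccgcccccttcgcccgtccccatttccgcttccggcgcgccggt
Sdhd: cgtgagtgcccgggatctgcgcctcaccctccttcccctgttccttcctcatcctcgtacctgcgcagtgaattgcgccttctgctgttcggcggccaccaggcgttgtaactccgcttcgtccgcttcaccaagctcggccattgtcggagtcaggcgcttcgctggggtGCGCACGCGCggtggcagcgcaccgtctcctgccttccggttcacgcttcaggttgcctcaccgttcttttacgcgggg
Cox5a: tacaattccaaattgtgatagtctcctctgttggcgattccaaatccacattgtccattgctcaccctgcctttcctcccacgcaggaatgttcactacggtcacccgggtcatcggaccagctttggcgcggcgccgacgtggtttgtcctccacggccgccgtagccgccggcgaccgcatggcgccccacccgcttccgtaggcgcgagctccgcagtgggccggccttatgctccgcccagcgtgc
Cox7a1: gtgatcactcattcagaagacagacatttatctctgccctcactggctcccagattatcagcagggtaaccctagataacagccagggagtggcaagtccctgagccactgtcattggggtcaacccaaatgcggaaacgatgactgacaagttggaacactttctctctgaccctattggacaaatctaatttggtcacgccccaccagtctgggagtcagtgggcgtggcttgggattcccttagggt
Cox7a2: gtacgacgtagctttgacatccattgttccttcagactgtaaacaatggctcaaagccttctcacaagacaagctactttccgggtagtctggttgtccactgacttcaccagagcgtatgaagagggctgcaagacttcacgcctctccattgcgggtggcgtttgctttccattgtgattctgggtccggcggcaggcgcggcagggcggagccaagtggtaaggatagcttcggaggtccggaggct
Cox6a1 held 2 matches and Sdhd held 1. The window of Cox5a and those of the isoform pair Cox7a1 and Cox7a2 held no match to it, which says only that these letters are not in these windows.

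Levels were compared between genes per length, as normalised CPM per kilobase of the principal mRNA in the WT vehicle libraries. Atp5b, the catalytic beta subunit of ATP synthase, was highest at 389.9 ± 12 (SD, n = 2), followed by Cox4i1, a regulatory subunit of complex IV, at 372 ± 5.13. Atp5a1, the alpha subunit, stood at 255 ± 2.67 and Cox6b1, a small subunit of complex IV, at 248 ± 8.21, and these did not differ beyond the spread of the latter. The lowest were Atp5g1, a gene for the c-ring subunit, at 0.430, the muscle isoform Cox6a2 at 1.24, and Ndufb2 at 3.14. Atp5g1 and Ndufb2 were divided by principal mRNAs of 4715 and 4371 bases, longer than the median of 861 bases for these genes, so their rank depends on that transcript. Divided by summed exon length instead, the same 4 genes led, with Cox6b1 first and Atp5b in place 4. Per complex, the median was 44.3 for complex I, 81.6 for complex II, 68.8 for complex III, 96.8 for complex IV and 88.9 for complex V.

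**Figure D1:**
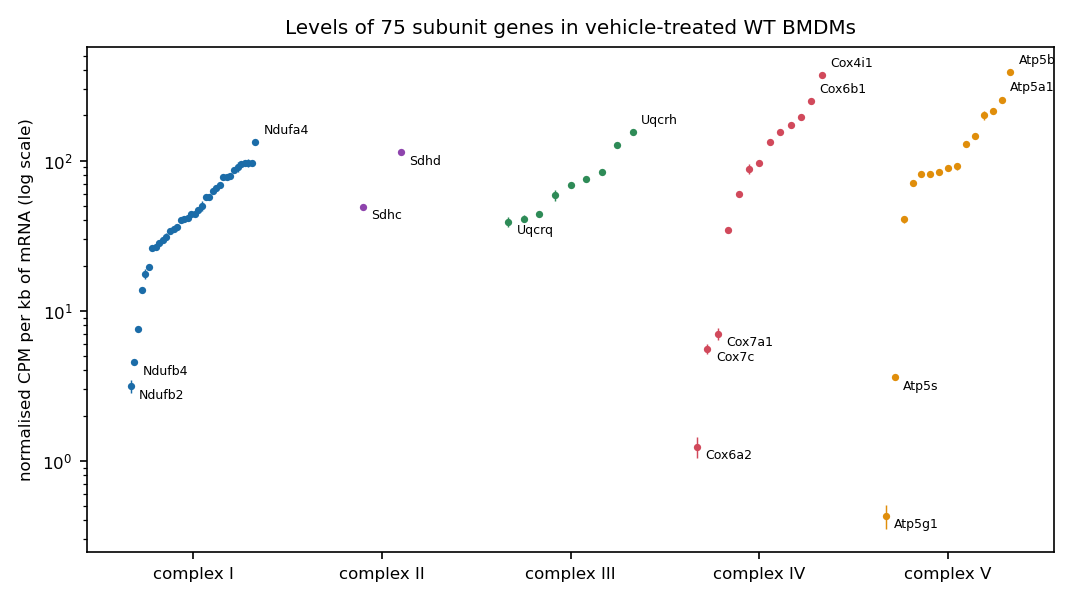
Level of each subunit gene per length in the WT vehicle group, as normalised CPM per kilobase of mRNA on a log axis, grouped by complex. Each point is the mean of 2 libraries with its SD, and the genes run from 0.430 (Atp5g1) to 389.9 (Atp5b).

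For 44 of the 75 genes at least 1 window of 50 bases, the read length, also occurred in a transcript of another annotated gene, mostly a processed pseudogene, and for 13 genes at least 25% of windows did. Cox7c (53.0%), Atp5o (50.3%) and Atp5h (47.9%) were the most affected, and their counts depend on how the reads were assigned. Exons of 26 genes overlapped those of another gene. The counts of these genes are therefore less certain than those of Cox7a1, Cox7a2, Ndufa6 or Sdhd, which shared no window.

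The 8 matched genes that were not tested include tissue isoforms. Cox8b, Cox8c and Cox7b2, known from muscle or testis, had 0 counts in all 12 libraries, and a count of 0 allows up to 3 counts in a library. Ndufa4l2, a gene known for its induction in hypoxia, had at most 1 count in a library, and Cox6b2, a testis isoform, had 2 to 9. Cox4i2, the lung isoform of subunit 4, had 14 and 16 counts in WT vehicle, 9 and 4 in WT PM, and 1 in each WT OI and PM library. In Acod1-/- cells it had 12 and 11, then 6 and 0, then 0 and 1. The Cox4i2 counts with vehicle did not overlap those with OI and PM in either genotype, while its share of the summed Cox4 level was at most 0.148% in any library. Atp5l with 4 to 13 counts and Atp5g2 with 17 to 36 completed the list, and 84.8% and 87.4% of their windows occurred elsewhere.

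The 12 libraries differed in these genes in a way that the groups explained only in part. For each gene the log2 level in a library was set against its mean over all libraries, and the median of these deviations over the 75 genes was −0.28 and −0.23 in the WT vehicle libraries and −0.20 and −0.22 in the Acod1-/- vehicle libraries. It was −0.07 and 0.22 in WT PM, 0.09 and −0.02 in Acod1-/- PM, 0.02 and 0.61 in WT OI and PM, and 0.02 and 0.07 in Acod1-/- OI and PM. The vehicle libraries lay lowest in both genotypes, and replicate 2 of WT OI and PM stood above every other library. In that library all 75 genes were higher than in its replicate 1, by a median log2 of 0.59, and in WT PM 73 of 75 were higher in replicate 2, by 0.31. In Acod1-/- PM only 11 were higher in replicate 2, with a median of −0.10.

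**Figure D2:**
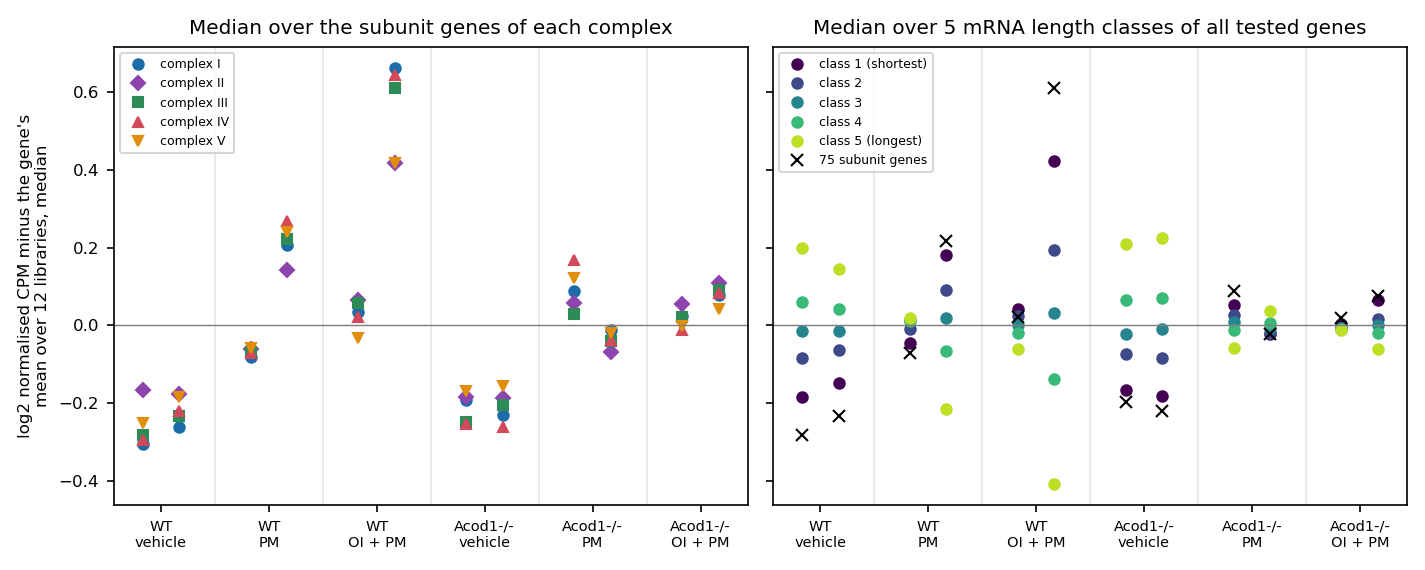
Median log2 deviation of the subunit genes from their mean over all libraries, one point per library and complex in the 6 groups (left panel), beside the same for all genes tested in 5 classes of mRNA length (right panel, crosses for the 75 genes). The vehicle libraries lie lowest, and replicate 2 of WT OI and PM lies highest at 0.61 over all 75 genes.

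These genes are short. The median length of the principal mRNA was 861 bases, against 2981 over all genes tested, and 65 of the 75 fell in the shortest of 5 equal classes of the genes tested (57 to 1686 bases). The same libraries that stood apart in the subunit genes stood apart in the shortest class of all genes tested: the median deviation of the shortest class was 0.42 in replicate 2 of WT OI and PM and 0.04 in replicate 1, while that of the longest class was −0.41 and −0.06. Across 11214 genes with a length, the difference between the replicates had a Spearman rho with mRNA length of −0.71 in WT OI and PM, −0.69 in WT PM and 0.44 in Acod1-/- PM. This is a description across genes, which share libraries and are not independent. The comparisons of groups moved with length as well: with PM in WT the shortest class had a median log2 fold change of 0.23 and the longest −0.27, and with PM in Acod1-/- 0.19 and −0.23. How far RNA quality, library preparation or the treatments gave rise to this was not tested, and the comparisons of treatments below are given beside a fit in which the trend with summed exon length was removed within each library.

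**Figure D3:**
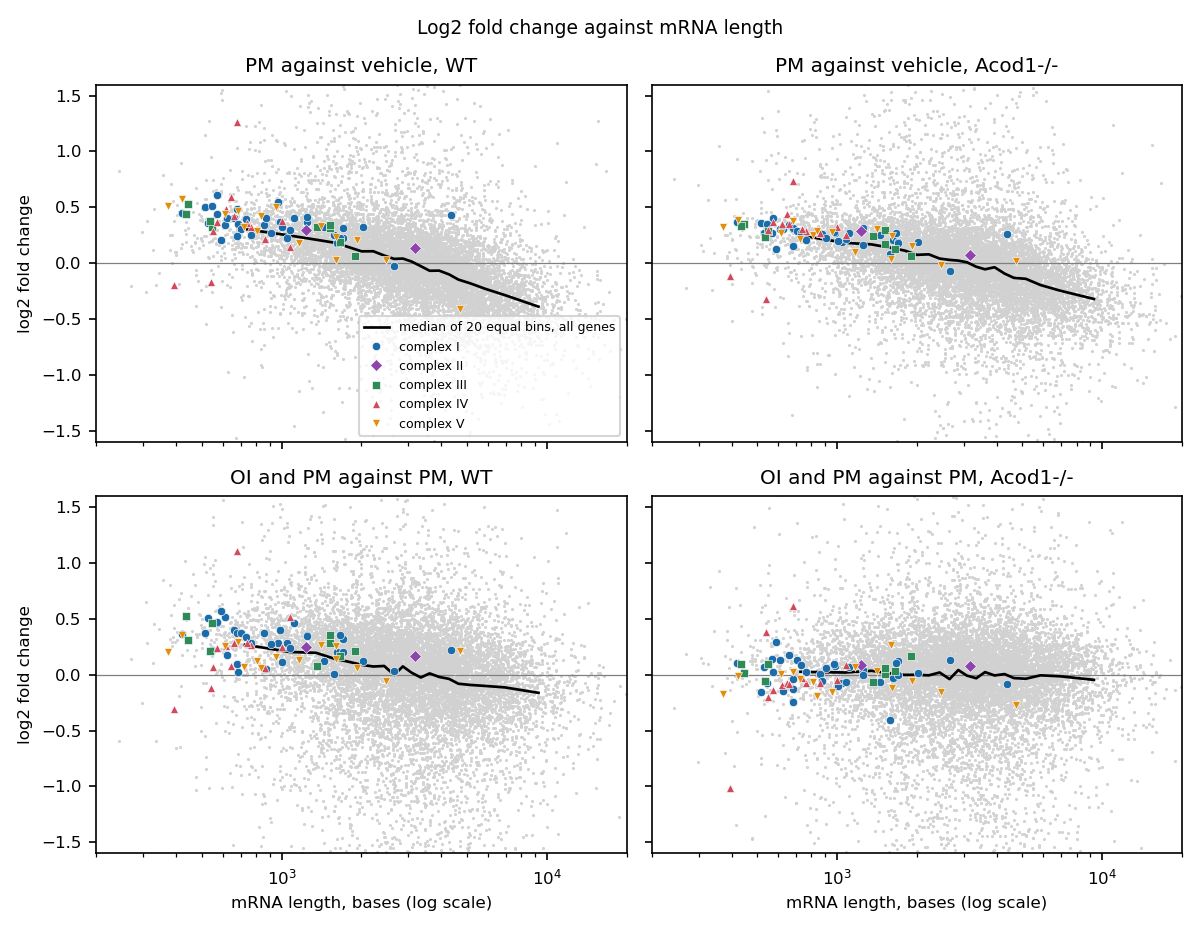
Log2 fold change against mRNA length (log axis) in the 2 PM and the 2 OI comparisons, with all genes tested in grey, their running median as a line and the 75 subunit genes in colour by complex. With PM the line slopes down with length, and most subunit genes lie at its short end, above 0.

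The comparison of PM with vehicle asks how the particles alone act on these genes. In WT cells 71 of 75 subunit genes had a higher mean with PM, with a median log2 fold change of 0.33 against 0.01 over all genes tested, but only 3 rose by edgeR's quasi-likelihood test at an adjusted p of 0.05 or less, and none fell. Over all genes 12.6% rose and 12.2% fell in this comparison, so the 3 of 75 are below the background. An unadjusted p under 0.05 by the same test was found for 28 of the 75, against 40.8% of all genes. Both PM libraries were above both vehicle libraries for 67 of the 75 and below them for 1, against 37.0% and 35.4% of all genes. In whole-culture RNA, a change in the make-up of the culture and a change of RNA per cell cannot be told apart. By complex the medians were 0.35 for complex I, 0.22 for complex II, 0.32 for complex III, 0.36 for complex IV and 0.33 for complex V.

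Cox5a, a nuclear structural subunit of complex IV, was measured at 99.3 and 100.5 normalised CPM in the WT vehicle libraries, 139.8 and 161.7 in WT PM, and 126.6 and 192.2 in WT OI and PM. In Acod1-/- it was at 102.8 and 105.0 with vehicle, 150.3 and 132.4 with PM, and 130.7 and 138.5 with OI and PM. Both genotypes were lowest with vehicle, without overlap. In WT it rose with PM by 0.59 ± 0.16 on the log2 scale (SE; adjusted p = 0.0246, edgeR), and in Acod1-/- the difference was 0.44 ± 0.16 (adjusted p = 0.0719, edgeR; 0.0326 by DESeq2). Of its windows 32.0% occurred in other annotated genes, and the WT call was lost without either vehicle library (adjusted p = 0.13 and 0.11) or replicate 2 of PM (0.153).

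Cox6a2, the heart and skeletal muscle isoform of subunit 6a, was low, with 28 and 37 counts in WT vehicle, 68 and 74 in WT PM and 94 and 179 in WT OI and PM. The Acod1-/- libraries held 37 and 42, 64 and 61, and 101 and 82 counts in the same order. Its exons overlap those of Itgad on the opposite strand, with 3.3% of its windows shared. Whether the counting used strand is not given in the sources used here. With all 4 vehicle libraries under the 1.5 CPM minimum, Cox6a2 entered the test only through the other groups and so had to differ. Its value with PM in WT, given for this reason as a description, was 1.26 ± 0.38, and in Acod1-/- it was 0.74 ± 0.37. It is 1 of the 3 genes counted above, so 2 of the 3 do not rest on that entry. Ndufa10, an accessory subunit of complex I, was at 70.6 and 74.9 normalised CPM with vehicle and 86.1 and 95.8 with PM in WT. It rose by 0.32 ± 0.10 (adjusted p = 0.0401, edgeR), a call lost without either vehicle library, replicate 2 of PM or any 1 Acod1-/- library (adjusted p = 0.0615 to 0.243). In Acod1-/- it was at 79.9 and 77.6 with vehicle and 91.6 and 88.3 with PM, without overlap, at 0.19 ± 0.10 (adjusted p = 0.189).

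The largest difference within complex I was that of Ndufa2, an accessory subunit (0.61 ± 0.26, adjusted p = 0.108), and within complex III that of Uqcr11, a small subunit (0.53 ± 0.21, adjusted p = 0.0959). Atp5e, the epsilon subunit of ATP synthase, was at 0.58 ± 0.23 (adjusted p = 0.0915), and Sdhd, the small membrane anchor of complex II, at 0.30 ± 0.12 (adjusted p = 0.0903). None of these 4 passed, although the PM libraries lay above the vehicle libraries for each. At the other end Ndufs1, the largest core subunit of complex I, was at −0.03 ± 0.06, and Atp5g1 was at −0.41 ± 0.23 (adjusted p = 0.21).

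In Acod1-/- cells none of the 75 subunit genes passed the test with PM in either direction by edgeR (12% of all genes rose and 11.9% fell). An unadjusted p under 0.05 was found for 5, against 37.1% of all genes, and DESeq2 called 1 as higher, Cox5a (13.0% of all genes). Again 71 of 75 had a higher mean with PM, the median log2 fold change was 0.27, and both PM libraries exceeded both vehicle libraries for 64 genes and lay below them for 1, against 38.2% and 38.8% of all genes. The interaction test of the PM effect between the genotypes called no subunit gene (0.0% of all genes), and the median of the differences was −0.08. As it called no gene at all, it cannot show that the effects were equal. There 0 had an unadjusted p under 0.05, against 2.43% of all genes, and DESeq2 called 0 (0.0178% of all genes higher and 0.00891% lower). Cox6a2 (−0.53 ± 0.54) and Ndufb4, an accessory subunit of complex I (−0.27 ± 0.28), were among the 3 with the smallest p, with Atp5g1 (0.43 ± 0.32).

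These counts changed when single libraries were left out and when the compared groups were fitted alone, and the cause of this was not tested. In WT 0 genes rose when either vehicle library or replicate 2 of PM was left out (6.42 to 7.66% of all genes), 1 when any single Acod1-/- library was (10.1 to 10.9%), 13 without replicate 1 of PM (14.3%), and 60 or 59 when replicate 1 or 2 of WT OI and PM was left out (22.9% of all genes in each), although those libraries are not part of the comparison. The count in Acod1-/- became 37 without either of those libraries (19.6% of all genes), and 59 in a fit of the compared groups alone, where that of WT became 17. In the latter fit 25.5% of all genes rose in Acod1-/- and 12.2% in WT.

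With the trend with length removed, the median of the 75 genes was 0.12 in WT and 0.08 in Acod1-/-, and with the trend with the length of the principal mRNA removed it was 0.077 and 0.066. Cox5a and Ndufa10 passed in WT in that fit (0.41 and 0.23; 15.3% of all genes rose), Cox6a2 was at 0.95 with the limit given above, and Cox7a1, the heart and muscle isoform of subunit 7a (−0.54, adjusted p = 0.0251), and Cox7c (−0.45, adjusted p = 0.0302) passed as lower (14.3% of all genes). In Acod1-/- Cox5a passed as higher (0.31, adjusted p = 0.0209; 15.7% of all genes) and Cox7c as lower (−0.54, adjusted p = 0.012; 14.0% of all genes). Cox7c, a subunit of complex IV, was counted at only 1.98 to 3.51 normalised CPM.

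Adding OI before PM asks how the itaconate ester changes the response to the particles. This comparison and the one before share the PM libraries of each genotype, and each shares libraries with the comparison of OI and PM with vehicle, so their values are set side by side without a correlation. In WT cells 72 of 75 subunit genes had a higher mean with OI and PM than with PM alone, with a median of 0.26 (0.11 with the trend with summed exon length removed and 0.04 with that of the principal mRNA), and 4 rose by edgeR while 0 fell, against 21.3% and 22.6% of all genes. Both OI and PM libraries lay above both PM libraries for 6 of the 75 and below them for 0, against 29.7% and 29.4% of all genes. With total-count scaling, under which the median of all genes was −0.11 and that of the members 0.12, 2 rose and 1 fell (12.6% and 29.5% of all genes). In Acod1-/- cells the median was 0.00, 38 genes had a higher and 37 a lower mean, 0 rose and 1 fell (13.9% and 20.6% of all genes). There 19 genes lay above and 16 below without overlap, against 36.7% and 37.7% of all genes.

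Ndufa6, an accessory subunit of complex I, was at 57.7 and 70.9 normalised CPM in WT PM and 79.4 and 112.3 in WT OI and PM. The groups did not overlap, and it rose by 0.57 ± 0.15 (adjusted p = 0.011, edgeR; 0.43 and 0.082 without replicate 1 of WT PM). In Acod1-/- it was at 69.4 and 64.6 with PM and 77.9 and 86.2 with OI and PM, again without overlap, at 0.29 ± 0.15 (adjusted p = 0.163). With vehicle it had been at 55.6 and 56.2 in WT and 62.2 and 60.2 in Acod1-/-, below the other groups of the same genotype, and with the length trend removed the OI difference passed in both genotypes (0.43 and 0.27, adjusted p = 0.000251 and 0.00611, edgeR).

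Cox6a2 rose further with OI in WT, by 1.11 ± 0.30 (adjusted p = 0.0145, edgeR), and in Acod1-/- the value was 0.61 ± 0.33 (adjusted p = 0.182). The WT call was lost without replicate 2 of WT OI and PM (0.47, adjusted p = 0.0797) or replicate 1 of WT PM (1.03, adjusted p = 0.0728). Cox7a2l was at 62.1 and 81.3 normalised CPM in WT PM and 83.0 and 122.0 in WT OI and PM, and rose by 0.51 ± 0.16 (adjusted p = 0.0283, edgeR). That call was lost without replicate 2 of WT OI and PM (0.21, adjusted p = 0.192) or replicate 1 of WT PM (0.33, adjusted p = 0.187). In Acod1-/- it was at 72.8 and 72.4, then 75.2 and 79.3, a difference of 0.09 ± 0.16. Ndufa12, an accessory subunit of complex I, rose in WT by 0.46 ± 0.16 (adjusted p = 0.0413, edgeR) and was at 0.07 ± 0.16 in Acod1-/-. Its call was lost in 10 of the 12 fits that left out 1 library, with 0.14 (adjusted p = 0.33) without replicate 2 of WT OI and PM and 0.35 (adjusted p = 0.208) without replicate 1 of WT PM.

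Cox7a1 was the gene counted as lower in Acod1-/-. Its levels were 2.41 and 1.90 normalised CPM in Acod1-/- PM and 0.872 and 1.26 in Acod1-/- OI and PM, the lowest of all groups. Both of the latter libraries were under the 1.5 CPM minimum, so the gene entered the test only through the other groups, and the difference of −1.01 ± 0.30 is given as a description. In WT it went from 1.94 and 2.88 to 1.53 and 2.40, with overlap and a difference of −0.31 ± 0.27 (adjusted p = 0.372). The difference in Acod1-/- was −0.83 without replicate 1 of PM and −0.77 without replicate 1 of OI and PM, and the raw counts behind it were 82 and 66 against 29 and 41.

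**Figure D4:**
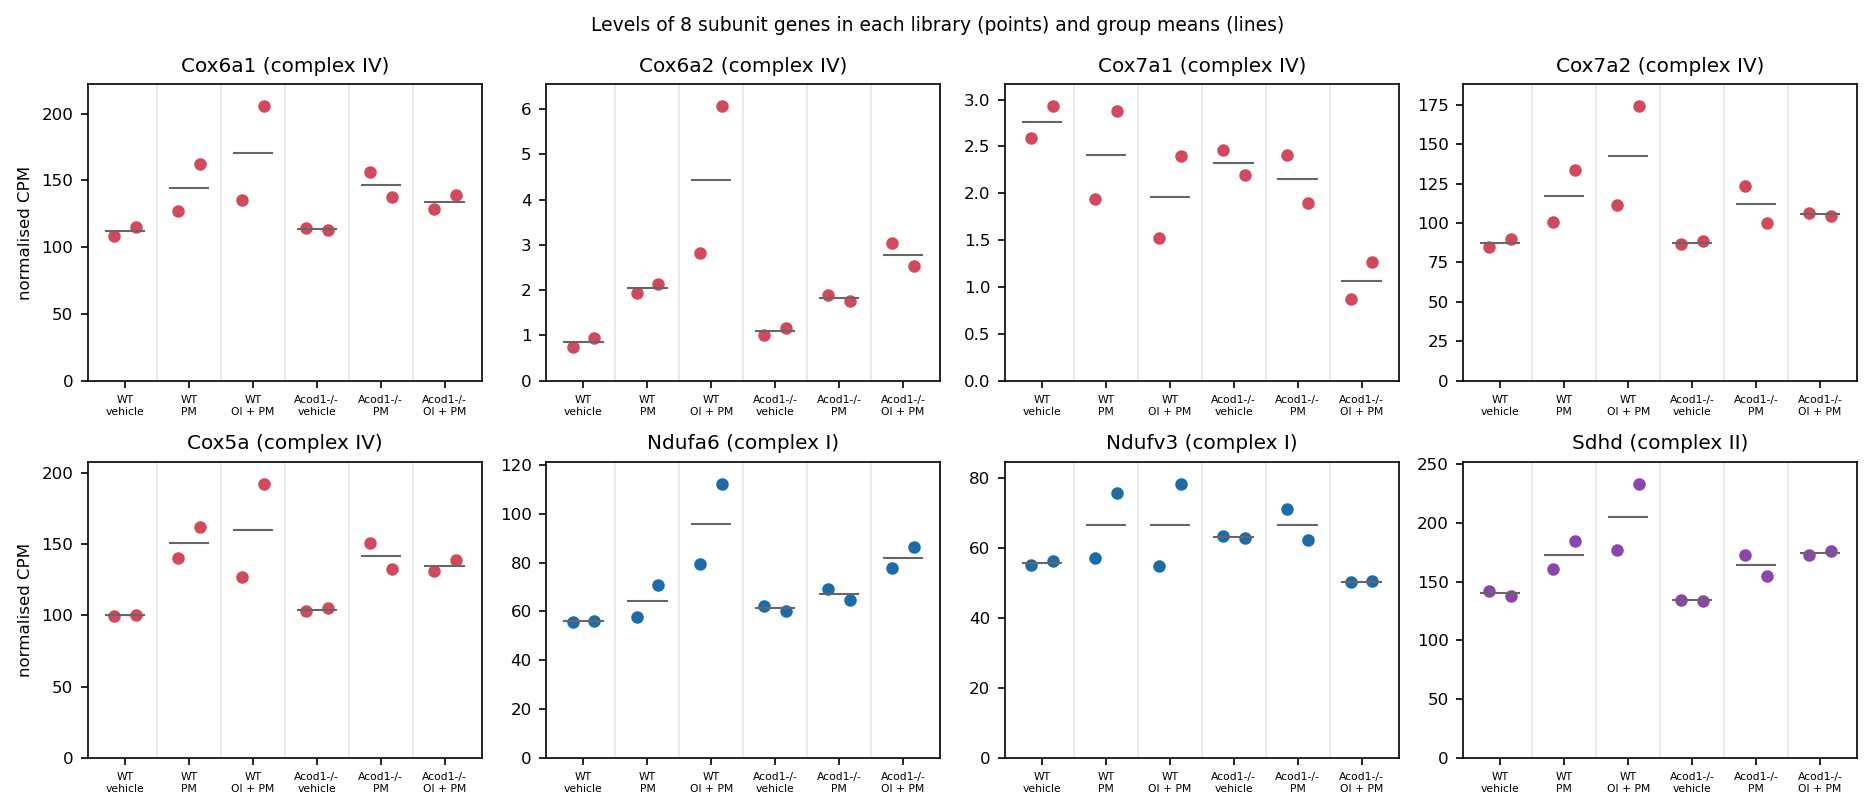
Normalised CPM of 8 subunit genes in each of the 12 libraries (points), with a line at the mean of each group of 2 and a linear axis from 0 for each gene. Cox6a2 climbs from vehicle to OI and PM in both genotypes, and Cox7a1 is lowest in Acod1-/- OI and PM. In these low groups the genes were under the 1.5 CPM minimum, so both are shown as a description only.

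The pairs of isoforms can be read within a library, where scaling cancels. Cox6a2 made up 0.577 and 0.681% of the summed level per length of Cox6a1 and Cox6a2 in WT vehicle, 1.27 and 1.09% in WT PM, and 1.72 and 2.42% in WT OI and PM. In Acod1-/- the shares were 0.738 and 0.863%, 1.0 and 1.06%, and 1.95 and 1.51%. The order vehicle, PM, OI and PM held in both genotypes without overlap, and Cox6a2 was never more than 2.42% of the pair. Cox7a1 made up 4.87 and 5.19% of the Cox7a1 and Cox7a2 pair in WT vehicle, 3.14 and 3.49% in PM, and 2.25 and 2.26% with OI and PM. In Acod1-/- the shares were 4.55 and 3.98%, 3.16 and 3.08%, and 1.35 and 1.98%. Since Cox6a2 entered the test only through the libraries other than vehicle, its low place with vehicle is no finding. The same holds for the low place of Cox7a1 in Acod1-/- OI and PM, where both libraries were under the minimum.

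The outcome of the OI comparison in WT rested on the replicates of WT OI and PM. Without replicate 1 the median was 0.51 and 67 of 75 genes rose (31.5% of all genes), while without replicate 2 the median was −0.05 and 1 rose (18.4% of all genes). Leaving out replicate 1 of WT PM gave 0 (14.1% of all genes), leaving out replicate 2 gave 13 (19.7%), and leaving out any single vehicle or Acod1-/- library gave 3 (18.5 to 19.5%). The test of a difference in the OI effect between the genotypes called no subunit gene by edgeR with all libraries (0.0% of all genes). Of the 75 genes 0 had an unadjusted p under 0.05, against 6.39% of all genes, and DESeq2 called 0 (0.116% of all genes higher and 0.187% lower). The median difference was −0.27, with 72 of 75 lower in Acod1-/-. That median was −0.13 with the trend with summed exon length removed and −0.08 with that of the principal mRNA, against −0.02 over all genes in both fits. Without replicate 1 of WT OI and PM it called 20 as lower in Acod1-/- (3.31% of all genes), and without replicate 2 it called 0 (0.0% of all genes).

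With the length trend removed, 12 genes passed as higher with OI in WT (25.2% of all genes) and 4 as lower (26.5%), and in Acod1-/- 3 passed as higher (19.0%) and 6 as lower (24.8%). Of these, Ndufa6 and Cox6a2 were higher in both genotypes, while Cox7a1 (with the limit given above in Acod1-/-), Atp5a1, Cox8a, the common isoform of subunit 8, and Ndufc2, an accessory subunit of complex I, were lower in both. Ndufc2 was named after its values were seen. Atp5a1 was at −0.12 in WT and −0.17 in Acod1-/- in that fit, and at −0.05 and −0.15 without it. In Acod1-/- Ndufv3, an accessory subunit beside the NADH site of complex I, passed as lower too: its levels were 71.0 and 62.3 with PM and 50.3 and 50.4 with OI and PM, at −0.40 ± 0.16 (adjusted p = 0.0843 without and 0.0136 with the length fit).

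Against vehicle, OI and PM together gave the most calls. In WT 66 of 75 genes rose and 0 fell (33.6% and 31.9% of all genes), with a median log2 fold change of 0.60, and both libraries with OI and PM lay above both vehicle libraries for 68 and below them for 1 (41.3% and 39.9% of all genes). All 9 genes of complex III and both of complex II were among them. They included 32 of 36 genes of complex I, 11 of 13 of complex IV and 12 of 15 of complex V. At the study's threshold of a 2-fold change as well, 2 of the 75 passed (5.38% of all genes): Cox6a2 at 2.37 ± 0.34, which entered only through the libraries other than vehicle and is given as a description, and Ndufa2 at 1.08 ± 0.26 (adjusted p = 0.00481, edgeR). Ndufa2 was at 54.5 and 56.1 normalised CPM with vehicle and 80.7 and 153.2 with OI and PM, so that replicate 2 was nearly 2-fold replicate 1. The 9 genes that did not pass were Atp5a1, Atp5g1, Atp5o, Cox7a1, Cox7c, Ndufa5, Ndufc2, Ndufs1 and Ndufv3, of which Ndufs1 was at 0.01 ± 0.06. With total-count scaling, under which the median of all genes was −0.20, 40 rose and 4 fell (20.3% and 45.5% of all genes).

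In the shortest length class of all genes 56.1% rose in this comparison. With the length trend removed, 45 subunit genes passed as higher (33.5% of all genes) and 5 as lower (33.4%), at a median of 0.23, and with the length of the principal mRNA in place of summed exon length 34 and 8 passed (34.0% and 33.9% of all genes), at a median of 0.13. Without replicate 2 of WT OI and PM 34 of the 75 rose (27.2% of all genes), with a median of 0.29, and without replicate 1 of vehicle 35 did (24.7%).

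In Acod1-/- OI and PM against vehicle had a median of 0.23, and 8 genes rose and 1 fell (22.7% and 26.7% of all genes). In a fit of the compared groups alone 65 rose and 3 fell (37.8% and 36.6% of all genes), while the same kind of fit in WT called 31 as higher (21.8%). The order of the 2 counts thus turned between the fits, and the cause of this was not tested. The groups did not overlap for 67 genes that were higher and 3 that were lower, against 42.6% and 43.7% of all genes. Sdhd was at 134.6 and 133.8 with vehicle and 173.1 and 176.0 with OI and PM, without overlap, and rose by 0.38 ± 0.12 (adjusted p = 0.0234, edgeR), a call lost without any 1 of the libraries compared. Ndufb6, an accessory subunit of complex I, rose by 0.52 ± 0.17 (adjusted p = 0.0318), and Cox6a2, 1 of the 8, was at 1.35 ± 0.35, a description for the reason given above. Ndufa6 (0.42), Ndufa1 (0.47), Ndufv1, the NADH-binding subunit (0.38), Uqcrc2, a core protein of complex III (0.23), and Atp5s (0.30) also rose, with adjusted p of 0.0342 to 0.0495. Cox7a1, the 1 gene counted as lower, was at −1.13 ± 0.29, likewise a description, since both of its OI and PM libraries were under the minimum. With total-count scaling, where the median of all genes was −0.15, the count was 1 higher and 3 lower (14.5% and 36.6% of all genes). With the length trend removed 8 passed as higher (26.8% of all genes) and 5 as lower (29.0%), at a median of 0.074 (0.018 with the trend of the principal mRNA). The 8 of the fit without it became 38 without either library of WT OI and PM (29.5% of all genes), 3 without either WT vehicle library (20.2%), 5 without either Acod1-/- PM library (21%), and 0 or 1 without any 1 of the libraries compared (14.7 to 16.1%).

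Complex II was read in full by adding Sdha, the flavoprotein, and Sdhb, the iron-sulphur subunit, which the naming rule does not take. Sdhc, the large membrane anchor, was at 154.3 and 157.2 normalised CPM in WT vehicle, 158.4 and 183.4 in PM and 171.8 and 212.2 with OI and PM, and rose with OI and PM against vehicle by 0.30 ± 0.10 (adjusted p = 0.0245, edgeR; 0.14 and not called without replicate 2 of WT OI and PM). Sdhd did so by 0.55 ± 0.12 (adjusted p = 0.0027) and Sdhb by 0.54 ± 0.15 (adjusted p = 0.00869). With the length trend removed Sdhb still passed (0.24, adjusted p = 0.0142), while Sdhd was at 0.10 (adjusted p = 0.0946) and Sdhc at 0.14 (adjusted p = 0.0637). Sdha was at −0.12 in the same comparison (adjusted p = 0.116), and in the length fit it passed as lower (−0.18, adjusted p = 0.00801). In Acod1-/- it fell against vehicle by 0.16 on the log2 scale (adjusted p = 0.0496, edgeR; 0.00676 in the length fit). It fell against PM by 0.20 on the log2 scale in WT (adjusted p = 0.0249, edgeR) and by 0.27 in Acod1-/- (adjusted p = 0.00733), and with the length trend removed the values were −0.23 and −0.27. Against PM alone, Sdhc was at 0.17 ± 0.10 in WT and 0.08 ± 0.10 in Acod1-/-, Sdhd at 0.25 ± 0.12 and 0.09 ± 0.12, and Sdhb at 0.17 ± 0.15 and −0.02 ± 0.15, none of them past the test. Whether Sdha differed from the other subunits in its response was not tested.

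The comparison of genotypes asks what loss of endogenous itaconate does to these genes. With vehicle 0 subunit genes differed by edgeR (0.891% of all genes were higher and 0.935% lower in Acod1-/-), with a median of 0.05. Of them 0 had an unadjusted p under 0.05, against 10.2% of all genes, and DESeq2 called 0 (1.23% of all genes higher and 1.51% lower). The genotypes did not overlap for 35 genes higher and 12 lower in Acod1-/- (31.6% and 27.0% of all genes). With PM 0 differed (1.1% and 1.3% of all genes), with a median of −0.05, and 2 had an unadjusted p under 0.05, against 14.0% of all genes. DESeq2 called 0 (1.83% and 2.03% of all genes), and 4 genes were higher and 2 lower without overlap (19.2% and 21.3% of all genes). In the compared groups alone, 13 were called higher and 2 lower with vehicle (10.4% and 10.3% of all genes). With OI and PM the median was −0.32, 70 of 75 genes had a lower mean in Acod1-/-, 20 had an unadjusted p under 0.05 against 29.2% of all genes, 0 passed by edgeR (2.51% of all genes higher and 4.45% lower), and DESeq2 called Ndufa3 and Ndufa9 as lower (6.94% of all genes). Without overlap 1 gene was higher and 26 were lower, against 24.3% and 29.1% of all genes.

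Ndufa3, an accessory subunit of complex I, was at 66.4 and 106.0 normalised CPM in WT OI and PM and 55.3 and 54.3 in Acod1-/- OI and PM, a difference of −0.65 ± 0.20 (adjusted p = 0.0768, edgeR; 0.019 by DESeq2). The WT libraries differed more from each other than replicate 1 of WT differed from Acod1-/-. This held for the genes as a whole: without replicate 1 of WT OI and PM the median was −0.60 and 67 of 75 were called lower (28.3% of all genes), and without replicate 2 it was 0.00 and 0 were (2.23% of all genes). The shortest length class of all genes had a median of −0.22 in this comparison and the longest 0.17. With the length trend removed 2 subunit genes passed as higher (6.93% of all genes) and 4 as lower (8.43%), at a median of −0.12.

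Other genes of the same machinery give the measure for these values. The 7 mitochondrially encoded subunits that passed the minimum, of 13, had a median log2 fold change of −0.15 with PM in WT and −0.06 in Acod1-/-, where the nuclear genes had 0.33 and 0.27. With PM 0 of 7 rose and 2 fell in WT, mt-Nd2 (−0.24, adjusted p = 0.0211, edgeR) and mt-Nd6 (−0.54, adjusted p = 0.0236), while 0 rose and 1 fell in Acod1-/-, mt-Nd6 again (−0.46, adjusted p = 0.0484), against 12.2% and 11.9% of all genes that fell. In the length fit 5 of 7 passed as lower in WT and 1 in Acod1-/- (14.3% and 14.0% of all genes), at medians of −0.38 and −0.30. mt-Nd6 is encoded on the opposite strand to the other subunits, and whether the counting used strand is not given in the sources used here. With OI 2 of 7 rose in WT and 5 of 7 in Acod1-/-, against 21.3% and 13.9% of all genes, and with the length trend removed 0 and 2 did (25.2% and 19.0%). mt-Nd1, a core subunit of complex I, was at 2353 and 2419 normalised CPM in WT vehicle, 2232 and 2250 in PM, and 2970 and 3102 with OI and PM, and in Acod1-/- at 2866 and 2902, 2802 and 2738, and 3736 and 3905. It rose with OI by 0.44 ± 0.05 in WT (adjusted p = 7.36e-05, edgeR) and 0.46 ± 0.05 in Acod1-/- (adjusted p = 5.34e-05), and it was higher in Acod1-/- than in WT with each treatment, by 0.27, 0.31 and 0.33 (adjusted p = 0.026, 0.0126 and 0.00724). Between the genotypes 2 of the 7 were called higher in Acod1-/- with vehicle, 2 with PM (mt-Nd1 and mt-Nd2 in both) and 4 with OI and PM (these and mt-Nd4 and mt-Cytb), against 0.891%, 1.1% and 2.51% of all genes, and 0 were called lower. Of the windows of mt-Nd4 62.2% also occurred in an annotated pseudogene, against 8.2% for mt-Nd2 and none for mt-Nd1 and mt-Cytb. mt-Nd6 was at −0.54 ± 0.14 with vehicle, −0.46 ± 0.15 with PM and 0.22 ± 0.15 with OI and PM, without passing. With the length trend removed the OI difference was 0.25 in WT (adjusted p = 0.0899) and 0.45 in Acod1-/- (adjusted p = 0.0092), and of the 3 genotype differences that with OI and PM passed (0.54, adjusted p = 0.0137). In that fit 0 of the 7 were called between the genotypes with vehicle or PM and 4 were higher with OI and PM (6.93% of all genes).

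Of 9 electron carriers and other entry points to the chain 0 rose and 1 fell with PM in each genotype, and 2 rose and 3 fell with OI in each. In the length fit 1 rose and 0 fell with PM in each, and the counts with OI were the same. Of 48 tested assembly factors, which build the complexes, 2 rose and 0 fell with PM in WT and 1 rose in Acod1-/-, with medians of 0.19 and 0.10. With OI 5 rose and 2 fell in WT and 3 rose and 1 fell in Acod1-/-. There the length fit called 0 with PM, and with OI 7 rose and 2 fell in WT and 4 and 2 in Acod1-/-. The 75 tested proteins of the mitochondrial ribosome, which translates the mitochondrially encoded subunits, had medians of 0.28 and 0.19 with PM, and 17 rose and 0 fell with OI in WT while 2 and 0 did in Acod1-/-. The length fit gave 19 and 4, and 7 and 3. The counts of these lists without the length fit stand beside shares of all genes of 12.6% higher and 12.2% lower with PM in WT and 12% and 11.9% in Acod1-/-, and with OI 21.3% and 22.6% in WT and 13.9% and 20.6% in Acod1-/-. In the length fit the shares were 15.3% and 14.3%, 15.7% and 14.0%, 25.2% and 26.5%, and 19.0% and 24.8% in the same order. Cytosolic ribosomal proteins, another set of short genes with a median mRNA of 886 bases, had medians of 0.26 and 0.20 with PM (0 of 57 rose and 1 fell in each genotype) and 0.36 and 0.03 with OI. The shortest class of all genes had medians of 0.23 and 0.19 with PM. In the length fit the cytosolic ribosomal proteins had medians of 0.058 and 0.021 with PM. The subunit genes had 0.12 and 0.08 there, and the mitochondrial ribosome 0.16 and 0.13. With OI the medians were 0.25 and 0.03 for the cytosolic ribosomal proteins, 0.11 and −0.02 for the subunit genes, and 0.14 and 0.05 for the mitochondrial ribosome. Of the cytosolic ribosomal proteins 16 passed as higher and 2 as lower with OI in WT, and 1 and 4 in Acod1-/-. Differences between these lists were not tested. Among 11 regulators of mitochondrial biogenesis the medians were 0.02 and 0.00 with PM, and 0 rose and 1 fell in each genotype.

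**Figure D5:**
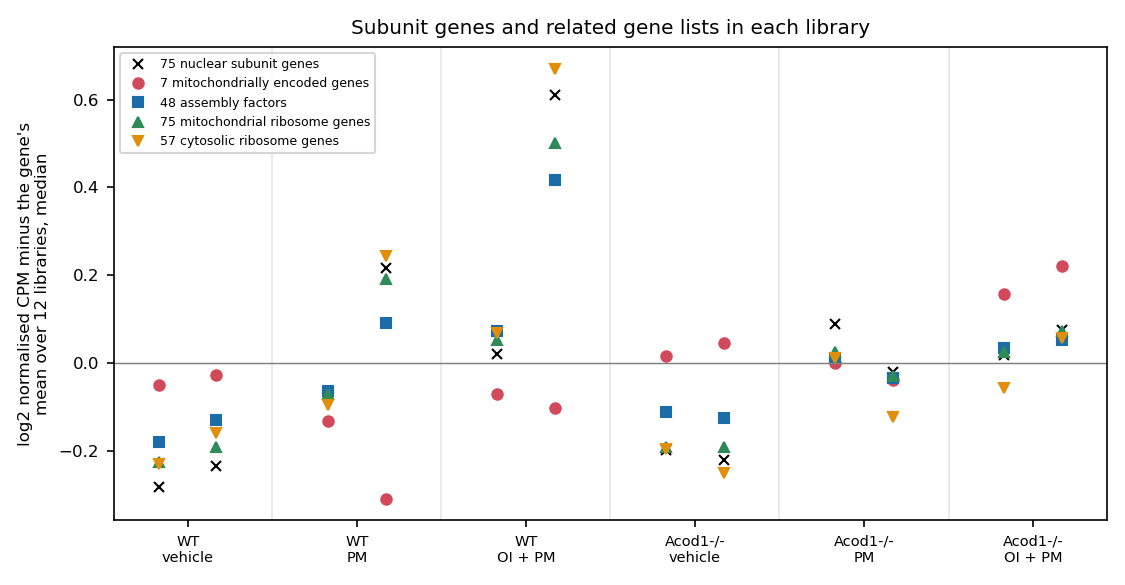
Median log2 deviation from the mean over all libraries for the nuclear subunit genes and the related gene lists, one point per library. The mitochondrial and cytosolic ribosome lists follow the nuclear subunit genes, with replicate 2 of WT OI and PM highest, and the mitochondrially encoded subunits do not.

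Nnt, the transhydrogenase of the inner membrane, is known to be deleted in part in C57BL/6J mice and intact in C57BL/6NJ mice. It was at 37.4 and 37.7 normalised CPM in WT vehicle, 33.2 and 33.0 in PM and 22.1 and 21.3 with OI and PM, and in Acod1-/- at 72.4 and 74.3, 64.3 and 63.4, and 52.9 and 52.0. It was higher in Acod1-/- by 0.97 ± 0.06, 0.95 ± 0.06 and 1.27 ± 0.06 (adjusted p = 3.83e-05, 4.83e-05 and 9.33e-06, edgeR). Of its windows 96.3% also occurred in a second annotated Nnt model, so that the counts may be incomplete. The study's methods name C57BL/6NJ for the WT mice, where the label gives C57BL/6 alone. Whether the genotypes differed in background was not tested, and genotype and any such difference cannot be told apart in these libraries.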

How the data were processed

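Per the labels and the study's methods, the authors sequenced single-end reads of 50 bases, checked them with FastQC 0.11.5, aligned them to GRCm38 with STAR 2.5.3a, checked the alignments with Picard 2.9.0 and deposited raw counts per gene made with featureCounts, 1 file per library. The annotation release, the use of strand and the treatment of multi-mapping reads are not given in the sources used here. Genes with CPM above 1.5 in at least 2 libraries were kept, and the counts of all 12 libraries were fitted by edgeR 4.0.16 in R 4.3.3 (TMM scaling, group means, quasi-likelihood test). Adjusted p are Benjamini-Hochberg values over the 11228 genes tested, a gene was called at 0.05 or less, and ± after a log2 fold change is its SE. Over all genes there were 9 comparisons of groups and 2 of genotype differences in an effect. DESeq2 1.42.0 was an alternative. The length fit removed, within each library, a lowess trend (span 0.3) on summed exon length, taken from GENCODE vM21. It was the trend of each gene's log2 level minus its mean over the fitted libraries. The main edgeR fit was tested on simulated counts, for PM against vehicle in WT alone. The simulated counts held no trend with length and no shift between replicates, and the other fits were not tested in this way. Deviations per library used log2 of normalised CPM with a pseudocount of 0.5.

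The members, the lists and the tests were chosen with earlier results of these data known. Named were Sdhc, Sdhd and tissue isoforms, the 3 called members with the smallest p in each direction of each comparison of groups, the largest and smallest log2 fold change per complex with PM and OI, the 3 smallest p of each interaction, and the 3 highest and lowest levels per length. Atp5g2, Atp5l, Atp5o, Cox7b2, Cox8c, Ndufa1, Ndufa5, Ndufa9, Ndufc2, Ndufv1 and the named mitochondrially encoded genes were named after their values were seen. Nothing in the labels ties libraries of the same replicate number to 1 mouse, culture or day. The numbers were therefore not used as pairs, and a fit with them as a block was an alternative.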

Additional observations from a re-analysis of the deposited data

How the results depend on the processing

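With 2 libraries per group the counts of called subunit genes depended on the settings. Depth limits mainly the low genes, and Cox6a2 and Cox7a1 rested on 28 to 179 and 29 to 115 counts per library. Of the genes left by a 2-fold minimum, all but Ndufa2 for OI and PM against vehicle in WT were Cox6a2 on the higher side and Cox7a1 on the lower, whose entry limits the report gives. Counts are given as higher and lower, with the share of all genes in brackets where shown, beside the settings of the report, and the cause of each shift was not tested. The alternatives with the length of the principal mRNA, with exchanged numbers and without both WT OI and PM libraries were chosen after seeing the data.

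For PM against vehicle in WT (3 higher), a 2-fold minimum left 1, DESeq2 called 5 (13.4% of all genes), the compared groups alone 17 (12.2%), and the fit without both WT OI and PM libraries 57 (22.4%). Both length fits and the replicate block with length correction called 2 as lower (14.3 to 15.8% of all genes). In Acod1-/- (0), DESeq2 and the 3 fits with length called 1 as higher (13.0 to 18.1% of all genes), the latter also 1 as lower (14.0 to 16.1%). The compared groups alone called 59 (25.5%), and the fit without both WT OI and PM libraries 37 (19.5%). The median of 0.27 became 0.19 with total-count scaling, 0.078 with length correction, 0.079 with the block and length, and 0.066 with mRNA length.

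For OI and PM against PM in WT (4 and 0), a 2-fold minimum left 1, RLE scaling gave 7 (21.9%), and total-count scaling 2 and 1 (12.6% and 29.5%). DESeq2 called 11 (22.4%), a CPM minimum in all libraries 2 (19.2%), and the compared groups alone 0 (5.33%). Length correction gave 12 and 4 (25.2% and 26.5%), mRNA length 12 and 7 (27.4% and 28.4%), the replicate block 8 (22.5%), and the block with length 13 and 4 (26.1% and 26.9%). In Acod1-/- (0 and 1), total-count scaling gave 3 lower (24.0%), the CPM minimum in all libraries 0, which removed Cox7a1, length correction 3 and 6, mRNA length 4 and 8, the block with length 3 and 6, the compared groups alone 4 and 5 (24.3% and 27.3%), and the fit without both WT OI and PM libraries 3 and 4 (20.5% and 24.6%).

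For OI and PM against vehicle in WT (66 and 0), a 2-fold minimum left 2, and total-count scaling gave 40 and 4 (20.3% and 45.5%). mRNA length gave 34 and 8 (34.0% and 33.9%) with a median of 0.13, and the compared groups alone 31 (21.8%). Length correction gave 5 lower with or without the block (33.7% and 33.4%). Under length fits Atp5s turned to −0.021 (−0.010 with mRNA length, −0.020 with the block), Cox8a to −0.21, and Uqcrfs1, the iron-sulphur protein of complex III, to −0.020 (also with the block). In Acod1-/- (8 and 1), a 2-fold minimum left 1, and total-count scaling gave 1 and 3 (14.5% and 36.6%) with a median of 0.083. The CPM minimum in all libraries gave 4 (21.5%). Length correction gave 5 lower (29.0%) with a median of 0.074 (0.073 with the block), and mRNA length 6 lower (30.6%) with 0.018. The compared groups alone gave 65 and 3 (37.8% and 36.6%), and the fit without both WT OI and PM libraries 40 and 3 (29.9% and 31.6%).

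For Acod1-/- against WT (0 in each), the compared groups alone called 13 and 2 with vehicle (10.4% and 10.3%). With PM, length correction called 1 higher with or without the block (2.58% and 2.54%), and mRNA length 3 (4.22%). With OI and PM, DESeq2 called 2 lower (6.94%), length correction 2 and 4 (6.93% and 8.43%), mRNA length 5 and 4 (9.55% and 11%), and the block with length 2 and 5 (7.7% and 9.19%).

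Leaving out 1 library gave 0 to 60 higher and 0 lower for PM in WT (median 0.18 to 0.49), 0 to 37 and 0 in Acod1-/- (0.20 to 0.30), 0 to 67 and 0 to 1 for OI in WT (−0.05 to 0.51), 0 to 3 and 0 to 4 in Acod1-/- (−0.05 to 0.05), 34 to 70 and 0 to 2 for OI and PM against vehicle in WT (0.29 to 0.88), and 0 to 38 and 0 to 3 in Acod1-/- (0.22 to 0.27). For Acod1-/- against WT it gave 0 with vehicle (0.03 to 0.07) and PM (−0.20 to 0.12) and 0 to 67 lower with OI and PM (−0.60 to 0.00), and for the differences of effects 0 with PM (−0.23 to 0.08) and 0 to 20 lower with OI (−0.55 to 0.05).

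Same-numbered libraries deviated together between the WT groups (correlation 0.23 and 0.24 with vehicle, 0.73 for WT PM and WT OI and PM), but not between the Acod1-/- groups (−0.09 to −0.04), and between genotypes the values ran from −0.41, for WT PM and Acod1-/- PM, to 0.25. With a replicate block PM in WT had 4 higher and OI in WT 8 (13.6% and 22.5% of all genes), and the pairing with the Acod1-/- PM numbers exchanged gave 26 for PM in WT (17.4% of all genes), 4 in Acod1-/- (15.1%), 17 for OI in WT (25.4%), 2 lower for OI in Acod1-/- (22.7%), 1 lower for OI and PM against vehicle in WT (34.1%), 19 and 3 in Acod1-/- (26.1% and 30%), and 8 lower for the genotypes with OI and PM (9.62%). Of the values for single named genes, 873 kept their direction and side of the threshold, 167 no longer passed, 28 moved and 8 reversed.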

Other observations

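Of the 13 mitochondrially encoded subunits 6 did not pass the minimum. Their counts, summed over the 12 libraries, were 0 to 4 each, while mt-Nd1 was at 2232 to 3905 normalised CPM. For all of them but mt-Atp8, 98 to 100% of the windows of 50 bases also occurred in another annotated gene, and for mt-Atp8 none did. Among the tested genes this share was 62.2% for mt-Nd4, 51.1% for mt-Co1, 8.2% for mt-Nd2 and 7.6% for mt-Nd5, and no window was shared for the others. How the authors' counting treated reads of these genes is not given in the sources used here, so the 7 tested genes do not stand for the whole mitochondrial transcript set.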
